A study of Homo sapiens with 9 samples.

Results

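The genes for the proteins of the cytosolic ribosome were examined in MDA-MB-453, a long-established line of human breast cancer cells, after knockdown of the long noncoding RNA LINC00673. A gene was taken when its symbol begins with RPL or RPS followed by a digit, or is RPLP0, RPLP1, RPLP2 or RPSA, and the RPS6K kinases, RPS19BP1 and a few further genes were left out. This gave 86 of the 19930 genes with values. Of these, 76 are core genes, with 45 for the large and 31 for the small subunit. Another 7 are paralogs, which are close relatives of a core gene, and 3 are readthrough genes, which join a core gene to its neighbour.

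The study compared control cells (X453_NC) with knockdown cells in the groups X453_1 and X453_2, with 3 libraries in each group. Cells were transfected with Lipofectamine 2000 and are described as harvested at 48 h. The methods name 2 siRNAs against LINC00673, numbered as the groups are, and the library labels give the knockdown but not the siRNA. The methods also describe control siRNA duplexes, and the paper's section on RNA sequencing does not state what the X453_NC cells received. The libraries of a group carry the same label with no suffix, r1 or r2. Nothing in the labels says that they came from separate cultures, so P values measure the spread between these libraries, which may be technical.

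A eukaryotic ribosome has a small subunit, which reads the mRNA, and a large subunit, which joins the amino acids. Both consist of ribosomal RNA and of ribosomal proteins, which are made in near equal numbers and are needed together. Most of their mRNAs begin with a 5′ terminal oligopyrimidine (TOP) tract, a C at the start followed by a run of C and T. Through this tract, mTOR and the RNA-binding protein LARP1 control translation of the mRNAs and their stability. Cancer cells that grow fast hold many ribosomes, and ribosomal protein mRNAs are then among the most abundant in the cell.

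RefSeq promoter sequences (GRCh38.p14) matched 69 of the 86 genes. A TOP start, read here as C at the annotated start followed by at least 4 further pyrimidines, was present in 47 of the 69, or 68.1%, against 5.14% of the 27305 genes of the table. The 30 bases around the start, from 10 before it, are shown for genes with large falls (RPS9, RPL3, RPL12, RPL13A, RPL10A, RPL41) and for 3 that rose in at least 1 knockdown group (RPL39, RPS28, RPL26L1). All are written 5′ to 3′, and capitals mark the unbroken run of C and T that begins at the annotated start.
RPS9, chr19:54200848-54200877, forward strand: gcttccgcgcCTCTTTCTCagtgaccgggt
RPL3, chr22:39319604-39319633, reverse strand: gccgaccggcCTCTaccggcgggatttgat
RPL12, chr9:127451387-127451416, reverse strand: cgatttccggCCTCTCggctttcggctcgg
RPL13A, chr19:49487598-49487627, forward strand: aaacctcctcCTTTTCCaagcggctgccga
RPL10A, chr6:35468391-35468420, forward strand: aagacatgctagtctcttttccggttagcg
RPL41, chr12:56116623-56116652, forward strand: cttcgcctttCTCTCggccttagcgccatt
RPL39, chrX:119791611-119791640, reverse strand: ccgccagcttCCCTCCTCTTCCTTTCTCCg
RPS28, chr19:8321486-8321515, forward strand: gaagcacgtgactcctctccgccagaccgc
RPL26L1, chr5:172958719-172958748, forward strand: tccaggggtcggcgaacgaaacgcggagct

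RPL39 has the longest run of those shown, with 19 pyrimidines, and RPS9 has 9. In RPL3 the run is of 4 bases only, which is under the limit used. In RPL10A and RPS28 no run begins at the annotated start, although a stretch of pyrimidines lies a few bases after it. The paralog RPL26L1 has none at this start. Another 3 motifs were searched on both strands over the 300 bases from 250 before to 50 after the start. CCGGAAG, the core of many ETS family sites, was held by 34.8% of the 69 genes against 12.2% of all genes. ATGGCGG, a core of YY1 sites, was held by 20.3% against 6.66%, and TATAAA by 11.6% against 14.0%. No motif of these is contained in another, and a match in such a window is a description only.

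The core genes were highly expressed. FPKM (fragments mapped to a gene, divided by transcript length and by the library's mapped fragments) are per length, so levels can be compared between genes. In X453_NC the core genes had a median of 1930 FPKM, and 35 of the 50 highest genes of each X453_NC library were ribosomal protein genes. RPL41, the smallest protein of the large subunit, was the highest of them with 5537 ± 297 FPKM (SD, n = 3). Only 3 core genes were under 100 FPKM. RPL9 read 33.6 ± 2.19, RPS28 read 16.5 ± 1.08 and RPL36A read 10.9 ± 0.380 FPKM in X453_NC. Many ribosomal protein genes have near-identical copies elsewhere in the genome, and how shared reads were assigned is not given in the sources used here, so these low values are uncertain.

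The depth, read from how far apart low FPKM values lie, was 23.4 to 27.9 M fragments per library. RPS28 had the fewest of the core genes with an estimate, 85 to 180 fragments per library. The median coefficient of variation of the core genes was 3.27% in X453_NC, 1.51% in X453_1 and 2.84% in X453_2. The epithelial markers KRT8, KRT18 and EPCAM were high in all 9 libraries, with 3011 to 3773 FPKM for KRT8. FOXA1, which MDA-MB-453 cells are known to express, was at 0 to 0.04 FPKM, and ERBB2 was at 11.8 to 17.8. CD3E, a leukocyte marker, had no value. The other markers of leukocytes, endothelium and fibroblasts were below 10 FPKM apart from CD68. CD68 was at 32.8 to 34.7 in X453_NC and at 45.9 to 59.3 in the knockdown libraries. The part of these markers in the results was not tested. LINC00673 itself was not analysed here.

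The summed level of the ribosomal protein genes was lower in both knockdown groups. The X453_NC libraries held 144876, 138157 and 138354 FPKM in these genes, X453_1 held 112484, 112501 and 110794, and X453_2 held 124256, 122524 and 123365. No library of one group overlapped with those of another. As a share of all FPKM, the genes took 26.8% ± 0.346 in X453_NC, 22.7% ± 0.0808 in X453_1 and 24.0% ± 0.155 in X453_2 (SD, n = 3). With 3 libraries against 3, a 2-sided exact permutation test cannot go below P = 0.1, and the groups were fully separated in each pair. FPKM give a share of the RNA, so a change in the amount per cell was not measured, and in bulk libraries a change in some cells and one in all cells cannot be told apart.

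Both subunits moved by a similar amount. The ratio of large to small subunit FPKM was 1.23 ± 0.00588 in X453_NC, 1.24 ± 0.00185 in X453_1 and 1.23 ± 0.00274 in X453_2. The 78 genes for the proteins of the mitochondrial ribosome, which is assembled separately, took 0.578% ± 0.00610 of the FPKM in X453_NC, 0.616% ± 0.00118 in X453_1 and 0.594% ± 0.00860 in X453_2. Their share was thus not lower in the knockdown groups.

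**Figure D1:**
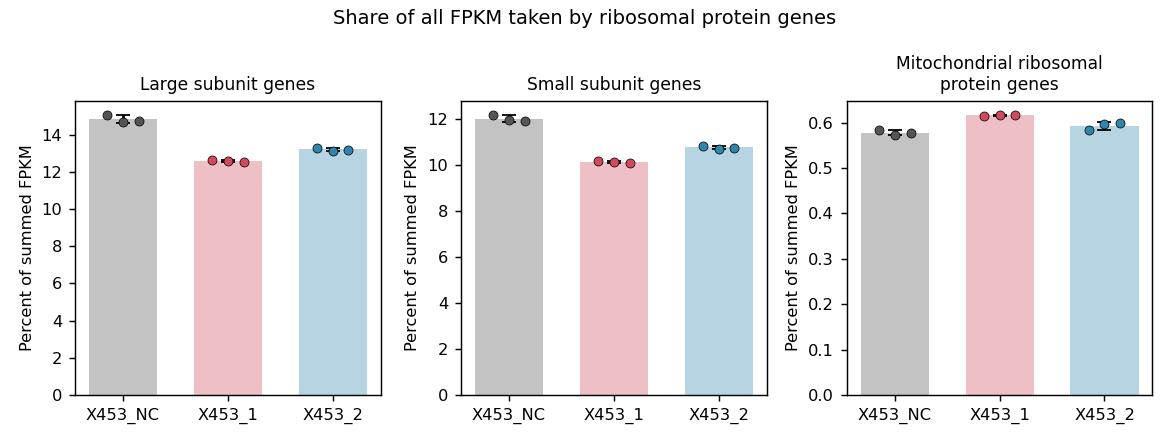
Percent of the summed FPKM of each library (vertical axes, from 0) taken by the large subunit genes, the small subunit genes and the mitochondrial ribosomal protein genes, for X453_NC, X453_1 and X453_2. Points are libraries, bars are means and error bars are SD (n = 3). The large subunit share was 14.8% in X453_NC, 12.6% in X453_1 and 13.2% in X453_2.

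The comparison of X453_1 with X453_NC asked which ribosomal protein genes changed with the first knockdown. It gave a broad fall of modest size. A mean of 1 FPKM or more was required, and 83 genes passed. Of these, 72 fell and 5 rose at an adjusted P of at most 0.05 (limma on log2(FPKM + 1), Benjamini-Hochberg over 12884 genes), where 32.3% of all genes tested fell and 32.1% rose. The median log2 fold change was -0.29, against 0.0032 for all genes tested. By the limits the study used (1.3-fold or more and P of at most 0.05), called the study's criteria here, 18 fell and 2 rose, which is 21.7% lower against 15.6% of all genes and 2.41% higher against 11.1%. In 74 genes all X453_1 libraries were below all X453_NC libraries, a pattern that 35.1% of all genes showed.

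Among the large subunit genes, 41 of 45 fell and the other 4 did not pass, with a median of -0.29. Among the small subunit genes, 30 of 31 fell and 1 (RPS26) rose, with a median of -0.31. The core genes that did not pass were RPL27, RPL36A, RPL39 and RPL9.

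The comparison of X453_2 with X453_NC uses the same control libraries, and its values are given beside the first. Of the 83 genes, 58 fell and 8 rose, where 44.8% of all genes fell and 26.0% rose. Their median was -0.16, against -0.095 for all genes, a difference of -0.061. By the study's criteria, 9 fell and 4 rose. The 10.8% that fell stand below the 23.1% of all genes, and the 4.82% that rose stand below 11.0%. In 57 genes all X453_2 libraries were below all X453_NC libraries, against 46.1% of all genes. With each library divided by its median ratio, which raised the median of all genes by 0.091, 32 fell and 15 rose (5 and 4 by the study's criteria) and the median was -0.050. By these criteria, 2246 of the 12884 genes tested then fell and 1975 rose, and the median of all genes was -0.0041. Without the X453_NC library that has no suffix, the difference from all genes was -0.036. With a correction for transcript length it was -0.14, with 69 lower and a median of -0.24, which is close to the -0.25 of X453_1 with the same correction.

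**Figure D2:**
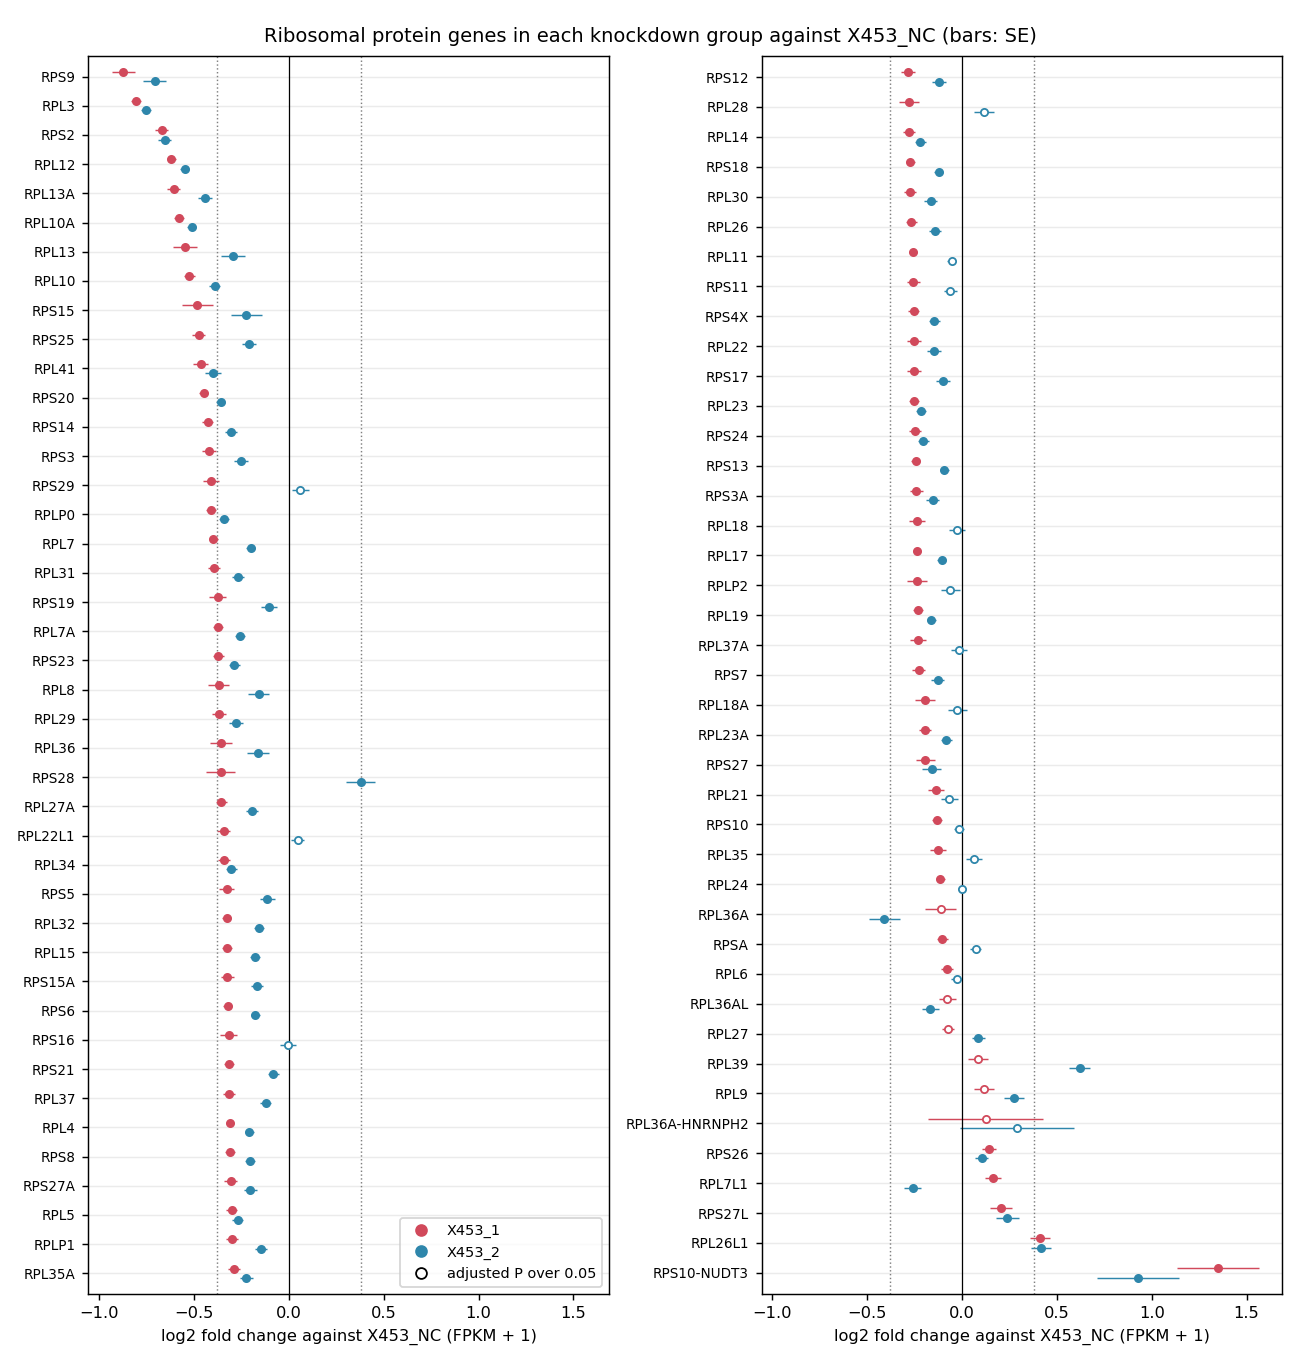
The log2 fold change against X453_NC (horizontal axis, on the log2(FPKM + 1) scale) for the 83 genes, ordered by X453_1 and split into 2 columns. Red is X453_1, blue is X453_2, bars are the SE of the fit, open points have an adjusted P over 0.05 and dotted lines mark a 1.3-fold change. RPS9 (-0.87) and RPL3 (-0.80) lie lowest in X453_1, and RPS10-NUDT3 lies highest in both groups.

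RPS9 (gene ID 6203, GRCh37 chromosome 19, 54704726 to 54711515) encodes a small subunit protein that acts in decoding accuracy. It read 1463, 1298 and 1384 FPKM in X453_NC, 786, 773 and 706 in X453_1 and 787, 895 and 859 in X453_2. All 6 knockdown libraries were below the lowest control library. The log2 fold change was -0.87 ± 0.060 (SE) in X453_1 and -0.71 ± 0.060 in X453_2, with adjusted P of 1.45e-06 and 3.47e-06.

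RPL3 (gene ID 6122, GRCh37 chromosome 22, 39708887 to 39715670) encodes a protein that reaches towards the peptidyl transferase centre, where peptide bonds form. Its level was 2357, 2310 and 2294 FPKM in X453_NC, 1362, 1334 and 1294 in X453_1 and 1356, 1407 and 1366 in X453_2. The knockdown groups overlapped with each other and lay far below the controls. The log2 fold change was -0.80 ± 0.027 and -0.75 ± 0.027, with adjusted P of 2.18e-08 and 1.32e-08. RPS2, a protein of the mRNA entry and decoding region, went from 3985 ± 188 FPKM in X453_NC to 2506 ± 71.0 in X453_1 and 2532 ± 12.8 in X453_2.

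RPL12 and RPL10A sit at the stalks of the large subunit. RPL12, at the base of the stalk that recruits elongation factors, read 2242, 2194 and 2148 FPKM in X453_NC, 1426, 1441 and 1424 in X453_1 and 1533, 1490 and 1482 in X453_2. RPL10A, the protein of the L1 stalk, read 1557, 1497 and 1494 in X453_NC, 1021, 1007 and 1021 in X453_1 and 1087, 1048 and 1054 in X453_2. For both genes the controls stood apart from all knockdown libraries. The log2 fold changes were -0.62 and -0.55 for RPL12 and -0.58 and -0.51 for RPL10A, each with an SE of 0.024 to 0.025 and adjusted P of at most 1.07e-07.

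**Figure D3:**
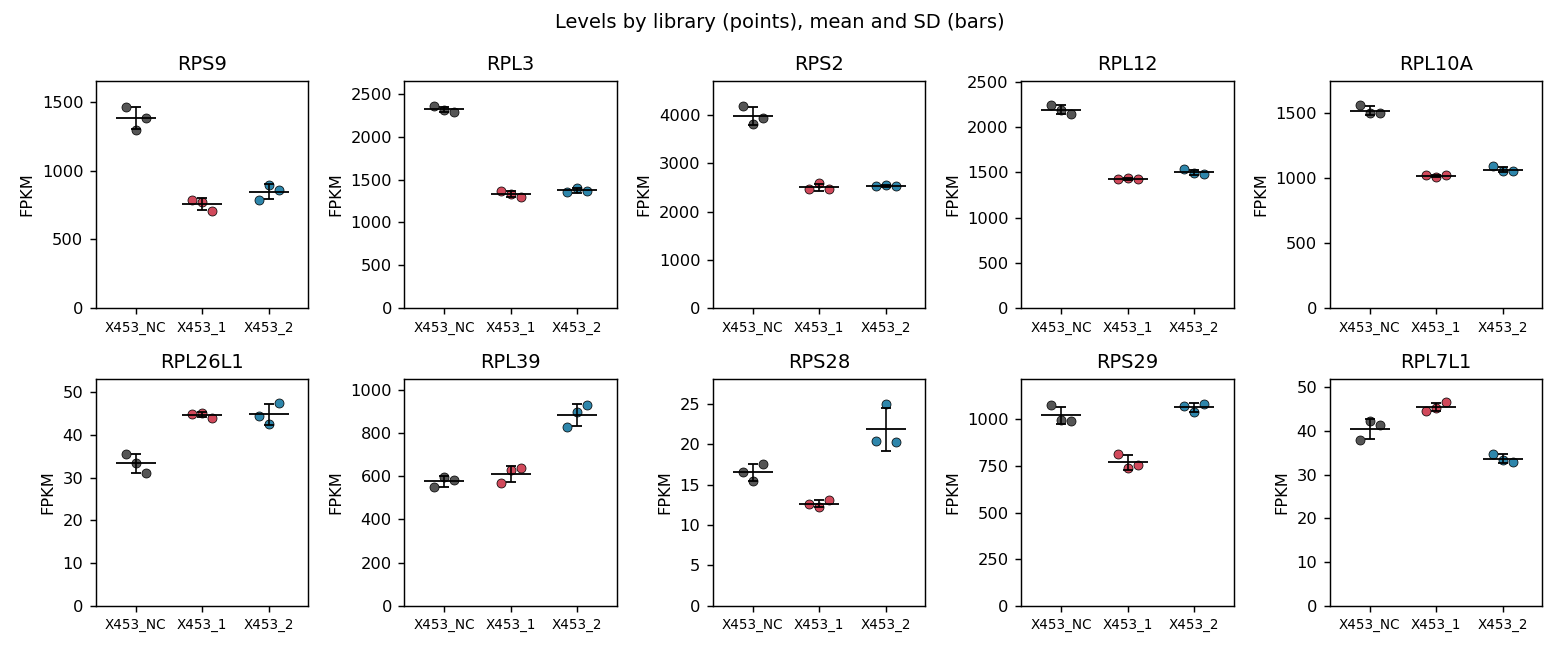
FPKM by library (vertical axes, from 0, with their own scale for each gene) for 10 ribosomal protein genes in X453_NC, X453_1 and X453_2. Points are libraries, wide bars the mean and error bars the SD (n = 3). RPS9, RPL3, RPS2, RPL12 and RPL10A were lower in both knockdown groups, RPL26L1 was higher in both, and RPL39, RPS28, RPS29 and RPL7L1 differed between X453_1 and X453_2.

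The other proteins of the stalk fell less. RPLP0, which holds the P1 and P2 proteins, had 3031 ± 66.6 FPKM in X453_NC, 2283 ± 45.1 in X453_1 and 2394 ± 31.6 in X453_2, with log2 fold changes of -0.41 and -0.34. RPLP1 fell by 0.30 and 0.15 on the log2 scale. RPLP2 fell by 0.24 in X453_1 (adjusted P = 0.00266), a call that was lost with a correction for GC content (-0.045, adjusted P = 0.371), and its value of -0.06 in X453_2 did not pass (adjusted P = 0.314).

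RPL13A, known for silencing the translation of inflammatory mRNAs when it leaves the ribosome, fell by 0.61 in X453_1 and by 0.44 in X453_2. RPL10, one of the last proteins to join the large subunit, fell by 0.52 and 0.39. RPL4, whose loop lines the exit tunnel, fell by 0.31 and 0.21. RPL41 fell by 0.46 and 0.40, and with 4012 ± 136 and 4193 ± 106 FPKM it was still the highest member in each group.

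RPL5 and RPL11 bind the 5S ribosomal RNA, and free of the ribosome they bind the ubiquitin ligase MDM2. RPL5 fell by 0.30 and 0.27, with adjusted P of 1.05e-05 and 1.67e-05. RPL11 fell by 0.26 in X453_1 (adjusted P = 6.05e-06). In X453_2 it read 2219, 2215 and 2251 FPKM against 2315, 2346 and 2281 in X453_NC, a value of -0.05 with an adjusted P of 0.0510.

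In the small subunit, RPS3, a protein of the mRNA entry channel, fell by 0.42 and 0.25. RPS6, the ribosomal substrate of the S6 kinases, fell by 0.32 and 0.18, from 3504 ± 63.1 FPKM to 2803 ± 4.70 and 3101 ± 66.2. RPSA fell by 0.10 in X453_1 (adjusted P = 0.0136) and was at 0.07 in X453_2 (adjusted P = 0.0572). Its call in X453_1 was lost with the length correction (-0.035, adjusted P = 0.293) and with scaling to the same summed FPKM (-0.017, adjusted P = 0.576). RPS27 fell by 0.19 and 0.16, and the second call was lost without the X453_NC library r1 or the X453_2 libraries r1 or r2 (adjusted P of 0.0535 to 0.0641) and with scaling by the median ratio (0.385). The first was lost with scaling to the same summed FPKM (0.0769).

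Few core genes rose. RPL39 (gene ID 6170, GRCh37 chromosome X, 118920467 to 118925622), a small protein at the exit tunnel, read 550, 598 and 582 FPKM in X453_NC, 569, 628 and 640 in X453_1 and 831, 900 and 931 in X453_2. X453_1 overlapped with the controls, and X453_2 lay above every other library. The log2 fold change was 0.08 ± 0.055 in X453_1 (adjusted P = 0.197) and 0.62 ± 0.055 in X453_2 (adjusted P = 4.64e-06). RPL39L, its testis-enriched paralog, was not analysed here.

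RPS28 (gene ID 6234, GRCh37 chromosome 19, 8386384 to 8387280), which lies at the mRNA exit, went in opposite directions. It read 16.6, 15.4 and 17.6 FPKM in X453_NC, 12.6, 12.3 and 13.1 in X453_1 and 20.4, 24.9 and 20.2 in X453_2. None of the groups overlapped. It fell by 0.36 in X453_1 (adjusted P = 0.00218) and rose by 0.38 in X453_2 (adjusted P = 0.00131). With a correction for transcript length, its value in X453_2 was 0.17 (adjusted P = 0.0543).

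RPS26, a neighbour of RPS28 at the mRNA exit, rose by 0.14 and 0.10, to 401 ± 10.1 and 391 ± 7.58 from 364 ± 16.6 FPKM. Its call in X453_2 was lost without the X453_NC libraries r1 or r2 or the X453_2 libraries r1 or with no suffix (adjusted P of 0.0614 to 0.0851), and the length correction turned the value to -0.028. With the GC correction neither rise passed (0.046 and 0.013, adjusted P of 0.263 and 0.749). RPL9 was at 0.12 in X453_1 (adjusted P = 0.0853) and rose by 0.27 in X453_2. RPL27 was at -0.07 in X453_1 (adjusted P = 0.0792) and rose by 0.09 in X453_2 (adjusted P = 0.0369). Its rise was lost with the GC correction (0.0069, adjusted P = 0.851), and the length correction turned the value to -0.088. RPL36A, which lies near the exit site for tRNA, was at -0.11 in X453_1 (adjusted P = 0.253) and fell by 0.41 in X453_2, from 10.9 ± 0.380 to 7.99 ± 1.14 FPKM. Its level was low, and the library of X453_2 with the suffix r2, at 6.68 FPKM, was below the other two at 8.61 and 8.68.

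The paralogs gave mixed values beside those of their core genes. RPL26L1 rose by 0.41 and 0.42, while RPL26 fell by 0.27 and 0.14. RPL26L1 read 35.6, 33.5 and 31.1 FPKM in X453_NC, 45.0, 45.2 and 44.1 in X453_1 and 44.5, 42.5 and 47.6 in X453_2, with adjusted P of 7.4e-05 and 5.46e-05. RPL26 was at 3455 ± 81.6 FPKM in X453_NC, so the paralog was a small part of the pair.

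RPS27L, a close relative of RPS27, rose by 0.21 and 0.24, with adjusted P of 0.0125 and 0.00511, while RPS27 fell. Its call in X453_1 was lost without the X453_NC library r2 or the X453_1 library with no suffix (adjusted P of 0.0520 and 0.0505) and with the GC correction (0.122). RPL7L1, a factor in the assembly of the large subunit, rose by 0.16 in X453_1 and fell by 0.26 in X453_2, whereas RPL7 fell by 0.40 and 0.20. The rise of RPL7L1 in X453_1 was lost with the GC correction (0.056, adjusted P = 0.141). RPL22L1 fell by 0.34 in X453_1 and was at 0.05 in X453_2 (adjusted P = 0.245), beside falls of 0.25 and 0.15 for RPL22, an RNA-binding protein at the surface of the large subunit. RPL36AL was at -0.08 in X453_1 (adjusted P = 0.154) and fell by 0.17 in X453_2.

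The readthrough gene RPS10-NUDT3 had the largest rise, from 1.73, 3.11 and 2.10 FPKM in X453_NC to 6.33, 7.75 and 7.93 in X453_1 and 7.37, 3.41 and 5.46 in X453_2. Its log2 fold changes were 1.35 ± 0.22 and 0.93 ± 0.22, on a log2(FPKM + 1) scale that understates the change of low genes. It shares reads with RPS10 and with its neighbour, so the value is uncertain. RPS10 itself fell by 0.13 in X453_1 and was at -0.01 in X453_2 (adjusted P = 0.656). RPL36A-HNRNPH2, at 4.18 to 11.4 FPKM, did not pass in either comparison.

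Of the 86 genes, 3 were under the expression filter. RPL3L, the striated muscle relative of RPL3, was listed at 0 to 0.05 FPKM, and RPL10L, the testis relative of RPL10, also at 0 to 0.05. RPL17-C18orf32, a readthrough gene, was at 0 to 1.57 FPKM.

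The comparison of X453_2 with X453_1 asked whether the knockdown groups differ, and it uses no control library. Of the 83 genes, 59 were higher in X453_2 and 2 lower (RPL7L1 and RPL36A), where 10.2% of all genes were higher and 33.9% lower. The call of RPL36A was lost with scaling by the median ratio (-0.20, adjusted P = 0.0745). The median was 0.13, against -0.081 for all genes. By the study's criteria, 5 were higher and 1 lower, with 2.19% and 5.45% for all genes.

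Transcript length moved with this difference. Ribosomal protein genes have short transcripts, with a median of 921 bases against 3542 for all genes tested. Among the other genes, the 668 with transcripts under 1000 bases had a median of 0.094, and the 12133 longer ones had -0.090. The 45 ribosomal protein genes under 1000 bases had 0.15 and the 38 longer ones 0.11. With each library's deviations smoothed on transcript length and subtracted, 18 genes were higher and 12 lower. The median of the 83 genes was then -0.020, against -0.077 for all genes, so its sign depended on this choice.

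The short ribosomal protein genes had a median of -0.27 in X453_1, against -0.019 for other short genes, and of -0.12 in X453_2, against 0.062. The long ones had -0.32 against 0.0067 and -0.20 against -0.10. 

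**Figure D4:**
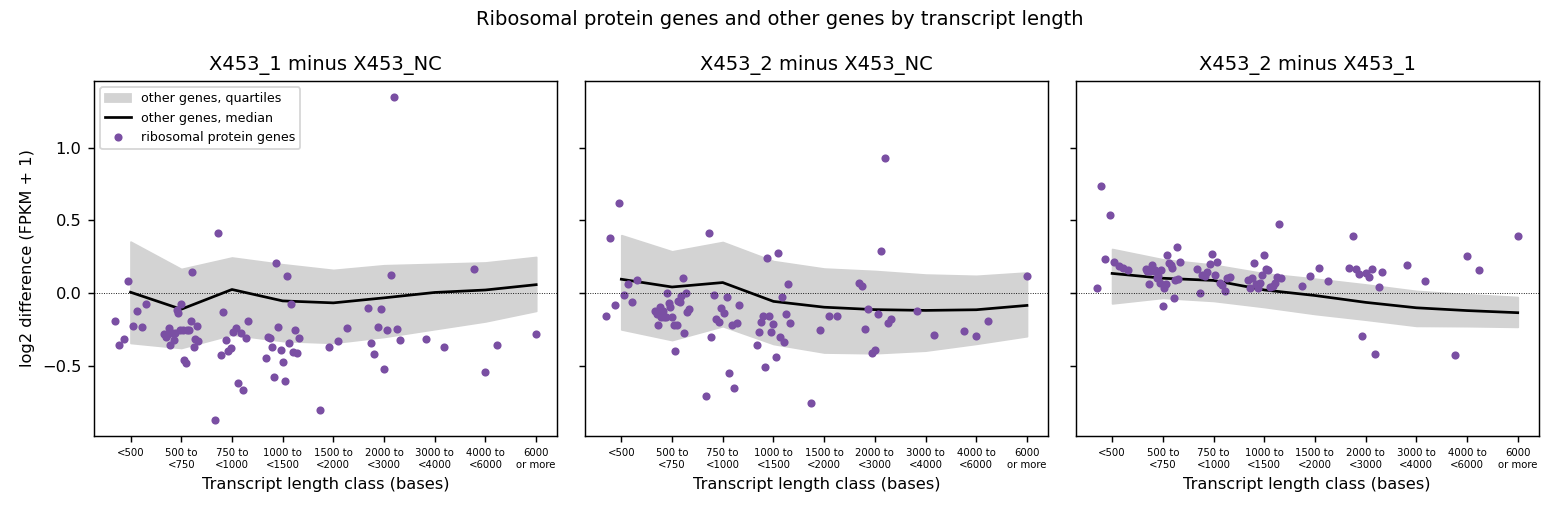
The log2 difference on the log2(FPKM + 1) scale (vertical axis) by class of transcript length (horizontal axis, bases) for the 3 comparisons. Purple points are the 83 ribosomal protein genes, the line is the median of the other genes in the class and the grey band their quartiles. Between X453_2 and X453_1 the median of the other genes went from 0.13 under 500 bases to -0.14 at 6000 bases or more.

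For the genes with the largest differences between the knockdown groups, the adjusted P stayed at or under 0.05 with the length correction, though RPL39 and RPL22L1 (0.32 and 0.35) were then under the fold limit. RPS28 was 0.74 ± 0.076 higher in X453_2 than in X453_1 (adjusted P = 0.000103), and 0.51 with the correction. RPL39 was 0.54 ± 0.055 higher, and 0.32 with the correction. RPS29, a zinc-binding protein near the decoding site, read 815, 738 and 754 FPKM in X453_1 and 1075, 1038 and 1084 in X453_2, with 1076, 995 and 994 in X453_NC. The X453_1 libraries lay below all others, with a difference of 0.47 ± 0.043, and 0.38 with the correction.

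RPL28, of the large subunit, was 0.39 ± 0.052 higher in X453_2, and RPL22L1 was 0.39 ± 0.035 higher. RPL7L1 was 0.42 ± 0.044 lower, with 44.6, 45.2 and 46.6 FPKM in X453_1 and 34.8, 33.4 and 32.8 in X453_2. In contrast, RPL3 and RPS2, with differences of 0.05 (95% interval -0.016 to 0.11) and 0.02 (-0.07 to 0.10), were not shown to differ, and RPL12 (0.07, adjusted P = 0.0412) and RPS9 (0.17, adjusted P = 0.0463) were just under the limit. The call of RPL12 was lost without any 1 of the 6 knockdown libraries (adjusted P of 0.0529 to 0.113). That of RPS9 was lost without the r1 or r2 library of either group (0.0687 to 0.160), and with the length correction it was at 0.0020.

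The falls varied with base composition. Over the 76 core genes, Pearson's r between GC content and log2 fold change was -0.34 in X453_1 and -0.09 in X453_2, so genes rich in GC tended to fall more in X453_1. The points share their libraries and depth, and r is given as a description. With GC content smoothed and subtracted in each library, the counts by the study's criteria in X453_1 were 34 lower and 1 higher, and the median was -0.35. Of the 11190 genes tested with a GC value, 1480 were lower and 1088 higher, with a median of -0.031. Core genes with a TOP start (45) had a median of -0.30 in X453_1 and -0.16 in X453_2, and those without one at the annotated start (16) had -0.28 and -0.14. With the range of the first being -0.87 to 0.08 in X453_1 and of the second -0.80 to 0.14, the sets overlapped almost fully.

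Genes that work with the ribosome but lie outside the rule gave mixed values. RACK1, a scaffold protein on the small subunit, read 2112, 2037 and 2047 FPKM in X453_NC, 1415, 1441 and 1408 in X453_1 and 1513, 1449 and 1515 in X453_2. It fell by 0.54 and 0.47, with adjusted P of 1.73e-07 and 2.38e-07. FAU, a fusion of a ubiquitin-like protein to a small subunit protein, fell by 0.19 in X453_1 (adjusted P = 0.0111) and was at -0.0049 in X453_2 (adjusted P = 0.942).

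A list of 18 further mRNAs known to carry a TOP start held translation factors and a few abundant proteins. Of these, 16 fell and 1 rose in X453_1, and 15 fell and 1 rose in X453_2, with medians of -0.32 and -0.32. The 88.9% and 83.3% that fell stand beside 32.3% and 44.8% of all genes. EEF2, which moves the ribosome along the mRNA, fell by 0.71 and 0.69, and EEF1A1, which brings tRNA, fell by 0.32 and 0.28. HNRNPA1, an RNA-binding protein, fell by 0.83 and 0.85. VIM, which encodes vimentin, was the gene that rose, by 0.21 and 0.19. EIF3H passed in neither comparison, and TPT1 fell by 0.21 in X453_1 and was at -0.01 in X453_2 (adjusted P = 0.803).

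Of the 54 factors of ribosome assembly on a list, 30 rose and 12 fell in X453_1 (55.6% and 22.2%, against 32.1% and 32.3% of all genes), with a median of 0.16. In X453_2, 13 rose and 22 fell (24.1% and 40.7%), near the 26.0% and 44.8% of all genes, with a median of -0.070. GNL2, a GTPase of large subunit assembly, rose by 0.66 and 0.68, and EBNA1BP2 rose by 0.71 and 0.62. PPAN, also a large subunit factor, fell by 1.15 and 1.78, and NOB1, the nuclease that finishes the small subunit RNA, fell by 0.63 and 0.72. NOP56, a core protein of box C/D particles, rose by 0.23 in X453_1 and fell by 0.56 in X453_2. Of the mitochondrial ribosomal protein genes, 31 rose and 28 fell in X453_1, and 28 rose and 26 fell in X453_2, with medians of 0.0030 and 0.024. In X453_1 these are 39.7% and 35.9%, near the 32.1% and 32.3% of all genes, and in X453_2 they are 35.9% and 33.3%, against 26.0% and 44.8%.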

How the data were processed

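MDA-MB-453 cells were sequenced on the BGISEQ-500 platform. The authors deposited 1 table with FPKM per gene and library, rounded to 2 decimals. The submitters' processing notes name Bowtie2 (version 2) and GRCh37.p13, and the counting tool is not given in the sources used here. The table gives the FPKM of the 9 libraries 2 times with equal values, and it also holds the authors' log2 ratios and P and Q values, which were not used. A further 4 lines had no values. Coordinates are those of the table.

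The 12884 genes whose mean was 1 FPKM or more were tested as log2(FPKM + 1) with limma 3.58.1 in R 4.3.3 (trend in eBayes, all 9 libraries in 1 fit). Adjusted P are Benjamini-Hochberg values. Python 3.11.15 was used with numpy 2.4.6 and pandas 2.3.3, and figures were made in matplotlib 3.10.9. The fit was tested on simulated data. Depth was estimated, so counts were not rebuilt.

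Each member was counted. Values are given for the stalk proteins, for RPSA, RPS3, RPS6, RPL3, RPL4, RPL5, RPL10, RPL11, RPL13A, for the paralog pairs, for the 5 largest rises and falls per comparison with an adjusted P of at most 0.05, for members under the filter, and for FAU and RACK1. Some other genes of the fixed lists are not reported here. RPL41, RPL27, RPS10 and the examples from other lists were added after their values were seen. Members and lists were chosen with earlier results of these data known. The alternatives were another added value (0.1 FPKM), other filters and scalings, only the libraries compared, a replicate block, no trend and each library left out. Corrections for GC content (11190 genes with a value) and transcript length, smoothed with a span of 0.3, and scaling without the ribosomal protein genes were chosen after seeing the data.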

Additional observations from a re-analysis of the deposited data

Results flagged for a closer look

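The effect of knockdown differed between X453_1 and X453_2 for 6 ribosomal protein genes, by the test of X453_2 minus X453_1, in which the shared controls cancel (log2 difference of at least 0.38 with an adjusted P of at most 0.05, limma). By the study's criteria, which use the unadjusted P, 6.02% of the 83 members were higher and 1.2% lower in X453_2. Of all genes tested, 2.19% were higher and 5.45% lower by these criteria. RPS28 differed by 0.74 (adjusted P = 0.000103), with means of 16.5 FPKM in X453_NC, 12.6 in X453_1 and 21.8 in X453_2. RPL39 differed by 0.54 (adjusted P = 9.36e-05), with 577, 612 and 887 FPKM. RPS29 differed by 0.47 (adjusted P = 4.96e-05), with 1021, 769 and 1066 FPKM. RPL28 differed by 0.39 (adjusted P = 0.000384), with 428, 351 and 462 FPKM. RPL22L1 also differed by 0.39 (adjusted P = 4.23e-05), with 16.2, 12.5 and 16.7 FPKM. RPL7L1 differed by -0.42 (adjusted P = 9.84e-05), with 40.5, 45.5 and 33.6 FPKM. With a correction for transcript length all 6 kept an adjusted P of at most 0.05, but RPL39 (0.32) and RPL22L1 (0.35) were under the limit of 0.38. Against X453_NC, RPL7L1 and RPS28 passed in opposite directions, and the rise of RPL7L1 in X453_1 was lost with the GC correction (adjusted P = 0.141) and that of RPS28 in X453_2 with the length correction (adjusted P = 0.0543).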

How the results depend on the processing

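In X453_1, 65 to 72 members fell by adjusted P under the alternatives that keep all libraries, and in X453_2, 32 to 69. Under these alternatives, counts of all genes by adjusted P are not given here or above. Counts of members by adjusted P alone thus do not separate a change in the members from one in all genes. The median of members minus that of all genes was then -0.32 to -0.24 in X453_1 and -0.14 to -0.046 in X453_2. The causes of the moves below were not tested unless stated.

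Scaled to the same summed FPKM, 10 of the 83 members fell by the study's criteria in X453_1, beside 1598 of the 12884 genes tested. The share of members that fell was then no higher than that of all genes. X453_2 against X453_1 then had 3 higher and 2 lower by these criteria, beside 208 and 1114 of all genes. By adjusted P it had 37 and 4. Single values that changed sign were 0.0088 for RPL36AL in X453_1 and, between the knockdown groups, -0.014 for RPL3 and -0.048 for RPS2. As a share of all FPKM, the log2 ratio of the summed level was -0.24 in place of -0.33 for X453_1 and 0.078 in place of 0.14 between the knockdown groups. Scaled without the members, 3 were higher between the knockdown groups by the study's criteria, beside 229 of all genes, and RPS2 was at -0.024.

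Scaled by the median ratio, X453_2 had 5 lower by the study's criteria, beside 2246 of the 12884 genes tested. By adjusted P, 15 were higher and 32 lower, with RPLP2 at 0.046 and RPL11 at 0.052. The calls of RPLP1, RPS27, RPL22, RPL26 and RPL36AL in X453_2 were lost (adjusted P of 0.255 to 0.404). Between the knockdown groups 0 were then lower by the study's criteria (limma), beside 321 of all genes, and 1 by adjusted P. Without the expression filter, the median of members minus that of all genes was -0.13 for X453_2 and 0.17 between the knockdown groups, where more genes are tested.

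With the GC correction, X453_1 had 1 higher and 34 lower by the study's criteria, beside 1088 and 1480 of the 11190 genes tested. By adjusted P, 3 were higher. The median difference was -0.32, and X453_2 had -0.096. RPL39 in X453_1 was then at -0.015, and RPLP2, RPSA, RPL22L1 and RPS29 in X453_2 were at 0.088, -0.018, -0.034 and -0.020. Between the knockdown groups RPS2 was at -0.013. With the length correction, the median difference was -0.24 for X453_1, -0.14 for X453_2 and 0.057 between the knockdown groups. X453_2 had 2 higher by the study's criteria, beside 1417 of the 12884 genes tested. Between the knockdown groups 3 were higher by these criteria, beside 234 of all genes, and 18 were higher and 12 lower by adjusted P. RPS26 was at -0.028 in X453_2, and RPL3, RPS2, RPL12 and RPL10A were at -0.025, -0.12, -0.073 and -0.058 between the knockdown groups.

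With 1 library left out, the median difference ranged from -0.31 to -0.26 for X453_1, from -0.074 to -0.036 for X453_2 and from 0.20 to 0.22 between the knockdown groups, the weakest of the first 2 being without the X453_NC library with no suffix. Members higher by the study's criteria ranged from 1 to 2 in X453_1, with 1 without the X453_NC library r2. Those lower between the knockdown groups ranged from 1 to 2, with 2 without the X453_2 library with no suffix. Of the values of single members, 447 kept their call, 19 lost it, 8 gained it and 0 changed sign. The losses were RPS27L in X453_1 without the X453_1 library with no suffix or the X453_NC library r2, RPS26 and RPS27 in X453_2 without several libraries, and RPL12 and RPS9 between the knockdown groups.

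For libraries with the same suffix, the deviations from the group mean had correlations of 0.10, -0.05 and 0.0035 between X453_1 and X453_NC. Between X453_2 and X453_NC they were -0.24, -0.083 and 0.027, and between the knockdown groups -0.16, -0.034 and -0.10. Pairs with unlike suffixes reached 0.27. Whether a suffix marks anything shared beyond the label was not tested. With the replicate block, 71 members fell in X453_1, 54 fell in X453_2 and 52 were higher between the knockdown groups by adjusted P. The depth estimate of RPS28 was low, at 85 to 180 fragments.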

Other observations

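Other lists around ribosome supply gave the following values. Of 18 genes of RNA polymerase I and its factors, which transcribe ribosomal RNA, 7 rose and 7 fell in X453_1, and 6 rose and 7 fell in X453_2 at an adjusted P of at most 0.05 (limma). These shares, 38.9% and 38.9% in X453_1 and 33.3% and 38.9% in X453_2, stand beside those of all genes, which are 32.1% and 32.3% in X453_1 and 26.0% and 44.8% in X453_2. POLR2L, a subunit shared by the RNA polymerases, rose by 0.71 and 0.89, and TAF1C, of the promoter selectivity factor, fell by 0.61 and 0.68. UBTF, which binds ribosomal DNA, fell by 0.29 and 0.56.

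Of 16 genes around mTOR and LARP1, 7 rose and 6 fell in X453_1, and 4 rose and 10 fell in X453_2. In X453_1 these are 43.8% and 37.5% of the list, against 32.1% and 32.3% of all genes. In X453_2 they are 25% and 62.5%, against 26.0% and 44.8%. MTOR rose by 0.52 and 0.34 and RPTOR, its partner in complex 1, by 0.40 and 0.51, while MLST8 fell by 0.67 and 0.78. LARP1 rose by 0.15 in X453_1 and fell by 0.16 in X453_2. RPS6KB1, an S6 kinase, fell by 0.18 and 0.61.

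A few further genes of growth control and stress, named after their values were seen, gave the following. CDKN1A, the cell cycle inhibitor p21, lay between 15.1 and 15.7 FPKM in X453_NC, reached 31.9 in X453_1 and 37.6 in X453_2, and overlapped between no 2 groups. It rose by 0.93 and 1.18, and PLK2 rose by 0.91 and 1.18. BBC3, which encodes PUMA, fell by 1.89 in X453_1 and also fell in X453_2. MDM2 was at 0.15 (adjusted P = 0.0607) and 0.10 (adjusted P = 0.185).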
